A study of Mus musculus with 5 samples.

Results

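The cells described here are splenic Esam, Ffar2 and Adam23 cDC2-like cells, type 2 conventional dendritic cells (cDC2) picked from single-cell transcriptomes by counts of a few genes. A cell was taken when it carried at least 2 unique molecular identifiers (UMIs, single counted transcripts) summed over Ffar2, Adam23, Cyp4f16 and Esam and at least 5 of the MHC class II gene H2-Ab1. It also had to hold at most 1 UMI of Cd209a, at most 1 of Siglech, none of Xcr1 or Clec9a, at most 2 of the B cell genes Cd79a, Cd79b and Ms4a1, and at most 1 of the 3 genes Cd3d, Cd3e and Cd3g. The rule was met by 1357 of 16271 cells that passed a minimum of 1000 UMIs and 500 genes with no more than 10% of UMIs from mitochondrial genes, and these 1357 cells are called members below. Because the rule reads measured counts, the levels of its own genes are a description and support nothing.

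The study infused C57/BL6 mice intravenously and took spleens 48 hours later. One group received saline, and the other groups received splenic cells that were live allogeneic (live allo, from Balbc mice), live isogeneic (live iso, from B6 mice), apoptotic allogeneic (apoptotic allo, Balbc) or apoptotic isogeneic (apoptotic iso, B6). Every spleen was digested with collagenase D and DNAse I. Cells positive for CD45 and dendritic cells were enriched on magnets apart from each other and mixed in equal parts, so that shares of cell types reflect this mix and not the whole spleen. Each of the 5 groups is 1 library, the labels used here do not say how many mice went into it, and differences between conditions therefore have no replicate check and are given without p-values. Their intervals cover counting error only, at 95%.

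Conventional dendritic cells take up antigen and present it to T cells. In mouse spleen the cDC2 that carry the adhesion protein ESAM are known to depend on Notch2 signalling and on lymphotoxin, to reside near the marginal zone and to prime CD4 T cells, while cDC2 with low ESAM share more genes with monocytes. Ffar2 is a receptor for short-chain fatty acids, Adam23 a membrane protein that binds integrins, and Cyp4f16 a cytochrome P450 enzyme. Interferons act on such cells through transcription factors that bind short motifs in the promoters of interferon-stimulated genes.

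Promoter sequences are shown for 4 genes of the interferon results below and for the gate gene Ffar2, since the motifs in capitals are those bound by the interferon and Notch machinery. Each is the 250 bases before the RefSeq gene start in build GRCm38.p6, 5′ to 3′ on the gene's strand. Capitals mark the core of the interferon-stimulated response element (GAAA, any 2 bases, GAAA) on either strand, or GTGGGAA (the core that RBPJ, the DNA-binding partner of Notch, recognises) in Ffar2. The Isg15 promoter lies at chr4:156200819-156201068 (minus strand), Ifit3 at chr19:34583279-34583528 (plus), Gbp2 at chr3:142620413-142620662 (plus), Cxcl9 at chr5:92328080-92328329 (minus) and the first listed of 4 Ffar2 starts at chr7:30823776-30824025 (minus).
Isg15: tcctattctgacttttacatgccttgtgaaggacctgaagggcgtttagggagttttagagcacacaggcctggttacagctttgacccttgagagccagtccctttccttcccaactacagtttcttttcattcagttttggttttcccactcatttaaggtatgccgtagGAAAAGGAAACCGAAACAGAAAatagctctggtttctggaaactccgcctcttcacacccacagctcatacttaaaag
Ifit3: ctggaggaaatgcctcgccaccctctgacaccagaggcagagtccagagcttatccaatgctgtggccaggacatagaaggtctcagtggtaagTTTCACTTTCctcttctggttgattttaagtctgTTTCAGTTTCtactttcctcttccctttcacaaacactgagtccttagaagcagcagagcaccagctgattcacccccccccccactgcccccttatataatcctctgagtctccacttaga
Gbp2: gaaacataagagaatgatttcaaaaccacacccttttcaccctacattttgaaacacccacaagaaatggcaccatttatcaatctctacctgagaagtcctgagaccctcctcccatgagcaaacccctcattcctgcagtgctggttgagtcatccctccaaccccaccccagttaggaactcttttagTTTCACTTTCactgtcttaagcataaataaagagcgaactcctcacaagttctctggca
Cxcl9: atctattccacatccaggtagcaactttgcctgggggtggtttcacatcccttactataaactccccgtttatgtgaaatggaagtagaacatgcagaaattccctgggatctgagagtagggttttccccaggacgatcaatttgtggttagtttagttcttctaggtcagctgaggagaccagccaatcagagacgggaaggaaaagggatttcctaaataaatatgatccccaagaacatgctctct
Ffar2: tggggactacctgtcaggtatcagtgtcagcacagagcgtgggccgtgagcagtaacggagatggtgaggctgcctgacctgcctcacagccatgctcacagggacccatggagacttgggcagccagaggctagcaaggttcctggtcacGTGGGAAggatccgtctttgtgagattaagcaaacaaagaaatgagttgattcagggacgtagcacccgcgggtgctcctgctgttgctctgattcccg
The response-element matches begin 78, 72 and 66 bases before the start of Isg15, where they overlap, 156 and 122 bases before Ifit3, and 59 bases before Gbp2, and the Cxcl9 window holds none. The windows of Irf7 and Ifi47, scanned but not shown, held none either. GTGGGAA was absent from the scanned windows of the gate genes Adam23 and Cyp4f16, of Dtx1 and of another Ffar2 start. Isg15 held a GTGGGAA match, left unmarked, 105 bases before its start. Over all RefSeq promoters of this length, 978 of 32851 (2.98%) held a response-element match. One stood in 15 of the 42 promoters matched for the type I interferon list (35.7%), in 11 of the 23 for the interferon-gamma list (47.8%) and in 0 of the 37 for the Notch2 list. GTGGGAA stood in 1779 of all promoters (5.42%) and in 3 of the 37 of the Notch2 list (8.11%), which belong to only 2 genes, Hes5 and Rara. A match is a run of letters and not evidence of binding.

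The saline library held 382 members among 2902 cells (13.2%, exact Clopper-Pearson interval 11.95 to 14.4%), live allo 88 of 1186 (7.42%, 5.99 to 9.06%), live iso 264 of 3685 (7.16%, 6.35 to 8.04%), apoptotic allo 286 of 2118 (13.5%, 12.1 to 15.0%) and apoptotic iso 337 of 6380 (5.28%, 4.75 to 5.86%). The magnetic enrichment and the depth of each library can set these shares, so no difference between conditions is read from them. Median UMIs per member were 4873.5 in saline, 9560.5 in live allo, 7110 in live iso, 6519.5 in apoptotic allo and 3783 in apoptotic iso. The UMIs of all members in a library summed to 1973544, 989124, 2011377, 1926235 and 1408029 in the same order, so the live allo sum is the thinnest. Scrublet, a doublet caller, marked 0 of the 1357 members, and it marked 1 to 117 cells per library elsewhere.

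Most of the gate rested on Ffar2, Adam23 and Cyp4f16. Ffar2 (chr7:30818348-30823775) was found in 78.3% of members in saline, 88.6% in live allo, 81.8% in live iso, 78.3% in apoptotic allo and 76.6% in apoptotic iso. Adam23 was found in 85.6%, 78.4%, 86.7%, 88.5% and 78.9% in that order, and Cyp4f16 in 64.9%, 79.5%, 75.8%, 77.6% and 67.7%. Esam, the gene that gives the population its usual name, was found in only 19.4%, 27.3%, 21.6%, 24.5% and 13.6%, so single members mostly lacked an Esam UMI at this depth. At least 3 of the 4 genes were found together in 753 members (55.5%).

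The threshold cut through a continuum. Of the cells that met every other condition, 147 held 1 UMI of the gate genes and stood just outside, 114 held 2 and stood just inside, and the median member held 5 (apoptotic iso) to 11 (live allo). Among B cells of the same libraries, which should lack these genes, 1.16 to 3.41% held 2 or more gate UMIs, at median depths of 1849 to 3983.5 UMIs. The B cell share is thus not a background level that holds for every cell type, and its part in the members near the threshold was not tested.

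In CPM, the UMIs of a gene scaled to a common total of all UMIs in the summed members, Ffar2 stood at 521 in saline, 513 in live allo, 433 in live iso, 457 in apoptotic allo and 497 in apoptotic iso. Adam23 stood at 608, 284, 442, 485 and 506 CPM in that order, lowest in live allo. Of the other given markers, Ccnd1 (cyclin D1) stood at 1625, 1551, 1309, 1467 and 1393 CPM, and Ppp1r14a, an inhibitor of myosin phosphatase, at 301, 472, 276, 324 and 415 CPM. Rtn1, a protein of the endoplasmic reticulum, stood at 174, 109, 121, 143 and 129 CPM. Live allo thus had the lowest level of Adam23 and Rtn1 and the highest of Ppp1r14a.

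**Figure D1:**
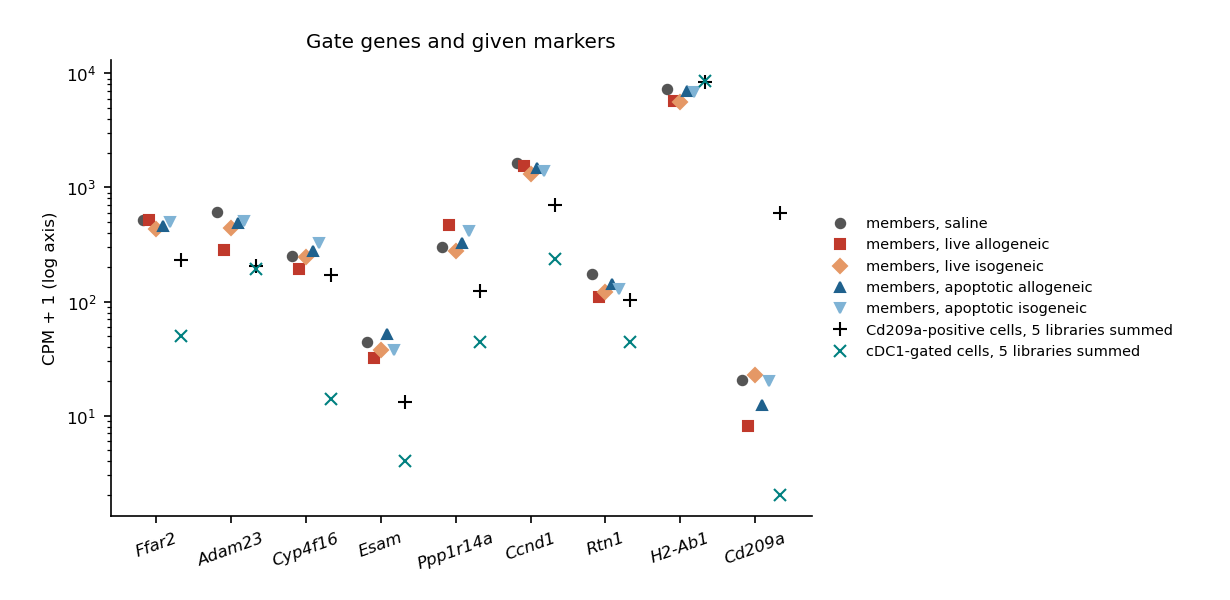
Levels of the gate genes and given markers, as CPM plus 1 on a log axis, in the members of each of the 5 libraries (1 sum per library) beside Cd209a-positive cells and cDC1 of all libraries with any number of gate-gene UMIs. Ffar2 stood at 433 to 521 CPM in members, 232 in the Cd209a-positive cells and 49.3 in the cDC1.

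The members carried genes of conventional dendritic cells in general (Zbtb46, Flt3 and Itgax) and several genes known for cDC2. The dendritic cell transcription factor Zbtb46 stood at 69.6 to 79.1 CPM, the growth factor receptor Flt3 at 85.6 to 154 and the integrin Itgax at 271 to 312. Sirpa, the inhibitory receptor that marks cDC2, stood at 241, 141, 243, 199 and 234 CPM in saline, live allo, live iso, apoptotic allo and apoptotic iso, against 12.3 in the cDC1 gated below. Clec4a4 and Cd4, known for ESAM-positive cDC2, stood at 19.2 to 34.1 and 51.6 to 105 CPM. Of the genes that mark cDC1, Xcr1 and Clec9a were at 0 by the rule. Several genes of cDC2 that the rule did not read were thus present in the members of each library. Not all of the cDC2 markers stood high. Against the Cd209a-gated cells described below, 3 of 10 tested were higher in members (Ltb, Cd4 and Clec4a4). Another 4 were lower (Itgam, Irf4, Clec10a and Mgl2). Against cDC1-gated cells 8 of 8 tested were higher.

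Markers of other cells were present at different levels, and some moved with a library. The 12 red pulp macrophage markers summed to 159 CPM in saline, 70.8 in live allo, 96.5 in live iso, 354 in apoptotic allo and 88.1 in apoptotic iso, with Cd163 at 0 in each. The 12 mature dendritic cell markers summed to 1178, 1242, 996, 975 and 660 CPM, and 8.31% (apoptotic iso) to 14.9% (saline) of members held at least 3 of their UMIs once every cell was thinned to 1000. The 14 B cell markers summed to 247 to 501 CPM, the 10 erythroid markers to 22.2 to 136 (highest in live iso), the 11 T cell markers to 28.3 to 38.4, and the 10 classical monocyte markers to 3197 to 4281 with Chil3 at 0 in 4 libraries. The monocyte sum exceeded that of the 12 cDC2 markers, 857 to 1277 CPM, and stood at 1211 to 2875 in cDC1-gated cells. The live iso members also stood apart in Gm42418, a transcript that overlaps a ribosomal RNA locus, at 56739 CPM against 13540 to 18231 elsewhere. Cell barcodes shared between 2 libraries numbered 0 to 8 per pair, at most 0.253% of the smaller library.

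Within each library the members were set beside 2 other gated populations, which asks what distinguishes them among conventional dendritic cells. Cd209a-gated cells (at least 2 UMIs of Cd209a, which encodes a C-type lectin, and at most 1 gate-gene UMI) numbered 77, with 1 in live allo, and cDC1-gated cells (at least 2 UMIs of Xcr1 and Clec9a, the same limits otherwise) numbered 323. UMIs were summed per library and population and fitted with edgeR's quasi-likelihood test, with library as a block and Benjamini-Hochberg adjustment over all genes. The gates and markers were drawn from these same cells, so the calls describe the gated populations and are not independent evidence of a cell type. Members made up 73.7 to 79.7% of the 3 gated populations in the 5 libraries. With comparison cells of any gate count they made up 51.2 to 62.99%, since 122 of 199 Cd209a-positive cells and 498 of 821 cDC1 themselves held 2 or more gate UMIs.

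Against the Cd209a-gated cells, the summed members were low in genes of monocytes and high in genes of division and maturation. The latter came from part of the members. Fscn1 was found in 11.3 to 30.7% of members per library and Mki67 in 13.4 to 45.5%. The part of the gates in these differences was not tested. At an adjusted p under 0.05, 689 of 7233 genes (9.53%) were higher in members and 458 (6.33%) lower. Ahnak, a large scaffold protein, averaged 12.9 CPM in members and 858 in Cd209a-gated cells, a log2 difference of -6.03 ± 0.24 (SE), and was lower in 5 of 5 libraries. Ccr2, the chemokine receptor of monocytes, averaged 10.5 against 369 CPM (-5.11 ± 0.25). The 10 other lowest genes by the naming rule were Fcgr2b, Ccl9, Ccl6, Wfdc17, Clec4b1, Crip1, Hpgd, Plec, Klrk1 and Fxyd5, at -4.42 to -2.72, among them the inhibitory Fc receptor Fcgr2b (-4.42 ± 0.32) and the chemokines Ccl9 (-4.37 ± 0.25) and Ccl6 (-4.27 ± 0.23).

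The highest genes had no UMI at all in the Cd209a-gated cells, so their folds are lower bounds, taken against 3 counts over that whole group. Fscn1, the actin bundler of mature dendritic cells, stood at 119, 245, 132, 122 and 68.9 CPM in members (saline, live allo, live iso, apoptotic allo, apoptotic iso) and was at least 23.5-fold higher. H2-M2, a class I-like MHC gene, stood at 230, 165, 138, 137 and 113 CPM and was at least 28.8-fold higher. Pclaf, a replication factor partner, was at least 39.6-fold higher, and the dividing-cell genes Hist1h3c, Cenpf and Prc1 at least 22.3-, 14.2- and 10.97-fold. Ryr3, an intracellular calcium channel, stood at 123, 67.7, 50.2, 119 and 121 CPM and was at least 17.7-fold higher. Gpm6b, Rasal2, Cd63 and Socs2 were at least 9.59- to 11.7-fold higher. In Cd209a-positive cells with any gate count Pclaf reached 40.02 CPM, H2-M2 21.7, Ryr3 8.82 and Fscn1 5.43, all below every library of members, and Socs2 was again at 0. Hist1h3c reached 51.6 CPM there, above the members of saline (37.5) and apoptotic allo (31.7).

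By list, 19 of 21 tested genes of dendritic cell maturation and costimulation were higher in members and 0 lower (median log2 difference 1.93, against 0.11 over all genes). Mature dendritic cell markers moved with these, with 10 of 10 higher in members (median 6.49), 160 of the 1357 members were scored as mature, and their part in the maturation genes was not tested. Of 36 cell cycle genes, 28 were higher and 1, Ccnd3, lower (median 2.24), with Mki67 at 4.93 ± 0.48 and Top2a at 4.47 ± 0.43. Of 21 genes known for cDC2B, the monocyte-related cDC2, 0 were higher and 15 lower (-1.83). Of 42 type I interferon genes, 1 (Herc6) was higher and 18 lower (-0.73), among them Ifitm3 (-1.84 ± 0.22) and Ifi27l2a (-1.36 ± 0.20). Of 17 C-type lectins, 2 were higher and 10 lower (-1.56), and of 27 NF-kappaB targets 12 were higher and 1 lower (0.61).

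The Notch2 and lymphotoxin list split in both directions, with 8 of 20 genes higher and 6 lower (median 0.02). Higher were the Notch target Dtx1 (6.73 ± 0.62), lymphotoxin beta itself (Ltb, 2.11 ± 0.25), the NF-kappaB subunit Relb (2.07 ± 0.26), Cd4, Clec4a4, Ccr6, Runx3 and Hes1. Lower were Rbpj (-1.24 ± 0.21), the receptor Notch2 (-0.84 ± 0.30, though higher in 2 of 5 libraries), Cx3cr1, Irf4, Scarb1 and Rara. Of 20 lineage transcription factors 4 were higher (Id2, Relb, Runx3 and Zbtb46) and 8 lower, with Id2 at 3.46 ± 0.32 and Zeb2 at -0.98 ± 0.20. Only 77 cells stand behind the Cd209a side. Without the live iso library the counts were 391 higher and 280 lower, without saline 416 higher and 302 lower, without apoptotic allo 440 higher, with DESeq2 432 higher, and against Cd209a-positive cells of any gate count 416 higher.

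Against the cDC1-gated cells, 1845 of 8202 genes (22.5%) were higher in members and 1800 (21.9%) lower. Ryr3, Dscam, Gpm6b and Scn3a, several of them better known from nerve or muscle, had 0 UMIs in the cDC1-gated cells and were at least 87.0-, 64.9-, 57.3- and 53.4-fold higher. Dtx1, which encodes a regulator and target of Notch, stood at 233, 180, 190, 246 and 198 CPM in members and at 1 UMI in all cDC1-gated cells (8.62 ± 0.33). Tgm2, a transglutaminase, was higher by 7.49 ± 0.34, and Sox4, a transcription factor, by 6.49 ± 0.50. Irf8, the factor on which cDC1 depend, stood at 15.6 to 44.5 CPM in members and 1629 to 2193 in cDC1 (-6.41 ± 0.14). Rab7b, Ifi205 and Cd36 were lower by log2 differences of -7.69 ± 0.23, -7.60 ± 0.25 and -7.44 ± 0.27, and Tlr3, the sensor of double-stranded RNA, by -5.33 ± 0.20.

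Here 14 of 23 Notch2 and lymphotoxin genes were higher and 5 lower (median log2 difference 1.67, against 0.04 over all genes). Of the maturation list, 19 of 23 were higher and 1 lower (2.16), of the SIRP and paired immunoglobulin-like receptors 12 of 14 and 1 (1.95), and of the NF-kappaB targets 21 of 27 and 2 (1.203). Of 41 type I interferon genes 21 were higher and 9 lower (0.70), the opposite side from the comparison with Cd209a-gated cells. Of 23 MHC class I genes 5 were higher and 12 lower (-0.32). Of 38 cell cycle genes 11 were higher and 1 lower. DESeq2 called 1221 genes higher in place of 1845.

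**Figure D2:**
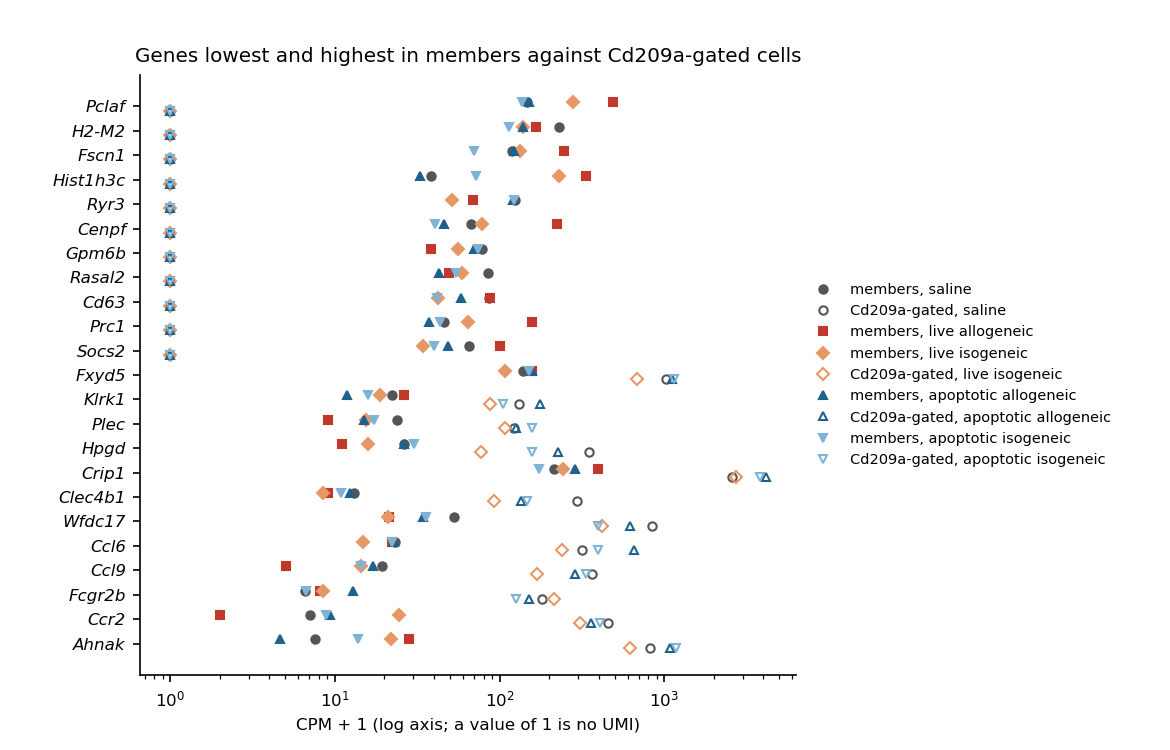
Levels, in CPM plus 1 on a log axis, of 11 of the highest and 12 of the lowest genes in members (filled points) and Cd209a-gated cells (open points), 1 point per library, with the Cd209a-gated point of live allo, a single cell, left out. The 11 upper genes sit at no UMI in the Cd209a-gated cells, and the 12 lower genes, such as Ahnak at 12.9 against 858 CPM over all libraries, lie to the left in members.

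Live allo against live iso asks which genes of these cells differ when the live infused cells are foreign rather than self. A gene counted as past the threshold when its CPM differed by at least 1.5-fold, among genes with at least 50 UMIs in the 2 libraries. Of 6271 such genes 636 (10.1%) were higher and 573 (9.14%) lower in live allo, and with Gm42418 left out of the CPM denominator the higher share of these calls went from 52.6% to 40.3%. Of 37 type I interferon genes 24 stood past it on the higher side and 0 on the lower, and the list's median log2 ratio was 0.62, while that of all genes was 0.00. The list summed to 6464 CPM in live allo and 3505 in live iso, with 3853 in saline, 3489 in apoptotic allo and 4124 in apoptotic iso.

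Isg15, a ubiquitin-like protein made after interferon, stood at 96.8 CPM in saline, 267 in live allo, 84.0 in live iso, 65.4 in apoptotic allo and 95.9 in apoptotic iso. Live allo was the high library and the others lay close together, and the ratio of live allo to live iso was 3.18 (2.61 to 3.88). Irf7, the factor that amplifies interferon production, stood at 35.0, 110, 31.8, 37.4 and 44.7 CPM in the same order, a ratio of 3.46 (2.52 to 4.79). Zbp1, a sensor of Z-form nucleic acid, stood at 31.4, 126, 27.8, 30.1 and 32.0 CPM, a ratio of 4.54 (3.29 to 6.34).
For both genes live allo again stood alone. Ifi27l2a stood at 243, 810, 346, 280 and 432 CPM (2.34, 2.11 to 2.60). Ifitm3 and Ly6e, abundant membrane proteins of the antiviral response, were 1.81-fold (1.68 to 1.96) and 1.82-fold (1.66 to 2.00) higher. Ifit3, whose promoter holds 2 response-element matches, stood at 31.4, 66.7, 20.4, 12.5 and 35.5 CPM.

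Of 18 interferon-gamma genes 9 were higher in live allo and 0 lower (median log2 ratio 0.52, and 0.02 among genes with at least 100 UMIs). Cxcl9, the chemokine that draws CXCR3-bearing T cells, stood at 5.07 CPM in saline, 148 in live allo, 13.9 in live iso, 17.1 in apoptotic allo and 7.81 in apoptotic iso, a ratio of 10.6 (7.04 to 16.5) for the live pair. This level came from few cells. Only 10 of 88 live allo members (11.4%) held a Cxcl9 UMI, the top 5 of them held 96.6% of its 146 UMIs, and 1 cell held 79. Without the members scored as mature the ratio was 4.71. In the other libraries 1.78 to 4.17% of members held one, against 0.356 to 1.11% of B cells over all 5 libraries. The guanylate-binding gene Gbp2 stood at 20.3, 56.6, 20.9, 22.8 and 14.2 CPM (2.71, 1.78 to 4.15), and Ifi47, an immunity-related GTPase, at 15.7, 64.7, 12.9, 18.7 and 10.7 CPM (5.01, 3.13 to 8.23). Irf8 was 1.79-fold higher (1.17 to 2.74), a direction that turned to 0.89 without the members scored as mature.

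Isg15, in contrast with Cxcl9, was spread over cells. A UMI of Isg15 was found in 79.5% of live allo members and in 21.96 to 31.4% of members elsewhere, and after thinning to 1000 UMIs in 18.2% against 7.12 to 9.16%. In B cells of the same libraries it was found in 32.4% in live allo and 5.11 to 7.94% elsewhere, so that its level moved in other cells too, and the part of free RNA in it was not tested. Members with at least 3 UMIs of the type I list after thinning made up 81.8% (72.2 to 89.2%) in live allo. They made up 59.4% (54.3 to 64.4%) in saline, 61.0% (54.8 to 66.9%) in live iso, 57.3% (51.4 to 63.1%) in apoptotic allo and 60.2% (54.8 to 65.5%) in apoptotic iso, and before thinning 94.8 to 100% in every library. These intervals cover the cells of 1 library each and compare no conditions. The median thinned cell held 6 UMIs of the list in live allo and 3 in each other library.

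The cDC1-gated cells gave 78.6% in live allo (28 cells) and 43.7 to 65.8% elsewhere, and the Cd209a-gated cells 91.7 to 100% with 1 cell in live allo. The list sums of cDC1-gated cells were 3600, 5285, 2873, 2978 and 3249 CPM in the order saline, live allo, live iso, apoptotic allo and apoptotic iso, and those of Cd209a-gated cells 9724, 9838, 8762, 9219 and 8145. No test was made of whether the populations differ in their response. Among members scored as mature the share with at least 3 list UMIs was 54.5% in live allo and 25 to 48.6% elsewhere. Among the other members it was 85.7% and 58.6 to 64.6%.

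**Figure D3:**
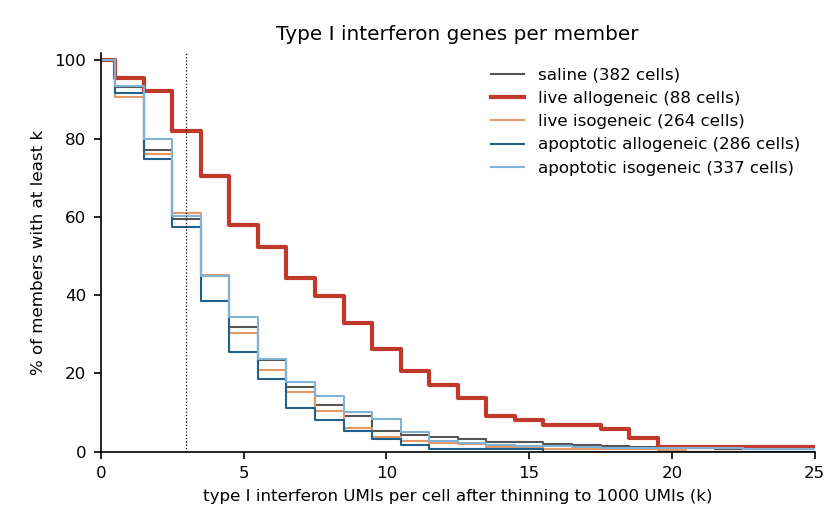
Percent of members (y axis) that held at least the number of type I interferon UMIs on the x axis once thinned to 1000 UMIs a cell, 1 stepped line per library, with a dotted line at 3 UMIs. At that line live allo stands at 81.8% and the other 4 libraries at 57.3 to 61.0%.

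Cell cycle genes also stood higher in live allo. Of 38 measured, 24 were higher than in live iso and 1 lower (median log2 ratio 0.71), and the list summed to 6732 CPM in saline, 14140 in live allo, 8586 in live iso, 6373 in apoptotic allo and 6410 in apoptotic iso. Both live libraries stood above the other 3. Mki67, the proliferation marker, stood at 170, 531, 314, 169 and 162 CPM in that order, and Top2a, the topoisomerase of dividing cells, at 176, 767, 326, 202 and 179.
Ube2c, which drives the exit from mitosis, stood at 65.9, 296, 70.1, 44.6 and 48.3 CPM (4.23, 3.44 to 5.203). The chromatin protein Hmgb2 stood at 586, 2114, 1242, 676 and 699 CPM (1.70, 1.60 to 1.80). After thinning, 25% (16.4 to 35.4%) of live allo members held at least 2 UMIs of 10 proliferation genes, against 7.59% in saline, 12.9% (9.09 to 17.5%) in live iso, 6.64% in apoptotic allo and 5.93% in apoptotic iso. The unthinned shares were 43.2, 12.6, 22.3, 14.3 and 9.79%, and 0.817 to 2.02% of B cells passed after thinning. In cDC1-gated cells the list summed to 4366 CPM in saline, 7330 in live allo, 3368 in live iso, 4740 in apoptotic allo and 4776 in apoptotic iso. Of these cells 14.1, 21.4 (28 cells in live allo), 2.86, 9.21 and 14.1% passed after thinning, in that order. Live allo was thus highest there too, and the cDC1 share exceeded that of members in saline and both apoptotic libraries.

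Antigen presentation differed by class. Of 23 MHC class I genes 10 were higher in live allo and 0 lower (median log2 ratio 0.54). Psmb9, an inducible proteasome subunit that makes class I peptides, stood at 203 CPM in saline, 504 in live allo, 257 in live iso, 181 in apoptotic allo and 201 in apoptotic iso (1.97, 1.74 to 2.23). Psmb8 was 1.79-fold higher (1.63 to 1.97), Psme2 1.75-fold (1.56 to 1.97) and H2-Q7 2.54-fold (2.20 to 2.94), the last being 1 of several near-identical class I genes whose reads may be split. Of 15 MHC class II genes 0 were past the threshold in either direction (-0.02).

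A few genes of cDC2 identity and Notch stood lower in live allo. Of 18 measured Notch2 and lymphotoxin genes 0 were higher and 3 lower, beside 10.1% and 9.14% of all genes (median log2 ratio -0.28, and 0.06 over 5 genes after thinning to 1000 UMIs a cell). Notch2 itself stood at 52.2 CPM in saline, 25.3 in live allo, 53.7 in live iso, 44.1 in apoptotic allo and 39.1 in apoptotic iso (0.471, 0.292 to 0.733). Cd4 stood at 91.7, 51.6, 105, 86.2 and 81.7 CPM (0.492, 0.355 to 0.670).
Live allo was the lowest library for both. Sirpa (0.578, 0.475 to 0.699, and 0.141 after thinning) and Adam23 (0.643, 0.560 to 0.736, and 0.785, under the threshold, after thinning) were lower as well, and Adam23 is a gate gene. The thinned ratios carry no interval and rest on only 88 live allo cells of 1000 UMIs each, so their size is uncertain. Ppp1r14a stood 1.71-fold higher (1.51 to 1.94). The integrin partner Adam19 was at 0.551 (0.352 to 0.837), and the prostaglandin receptor Ptger4 at 0.348 (0.177 to 0.631), or 0.110 without mature-scored members.

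The maturation list gave 6 higher and 3 lower of 21 genes (median log2 ratio 0.21), and its members did not move together. Fscn1 stood 1.85-fold higher (1.55 to 2.21), with 65.3% of its live allo UMIs in 5 cells and a ratio of 1.45 without the mature-scored members, and Traf1 1.56-fold higher (1.38 to 1.76). Cd83, a costimulatory surface protein, stood at 180 CPM in saline, 75.8 in live allo, 138 in live iso, 168 in apoptotic allo and 107 in apoptotic iso (0.551, 0.421 to 0.713). Of 25 NF-kappaB targets 1 was higher and 4 lower (-0.28), among them Rel (0.609, 0.526 to 0.704) and Birc3 (0.626, 0.482 to 0.806). The chemokine Ccl4 stood at 2.53, 76.8, 13.4, 31.1 and 12.8 CPM (5.72, 3.65 to 9.24), a ratio that was 12.3 as a mean over cells and 14.5 without the mature-scored members.

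The stress and uptake lists stood lower in live allo than in live iso. Of 25 genes of dissociation and heat stress 0 were higher and 12 lower (median log2 ratio -0.45). Fos, an immediate early gene, stood at 118, 112, 282, 163 and 80.3 CPM (0.397, 0.321 to 0.488) and Zfp36, which destabilises cytokine messages, at 157, 225, 466, 171 and 156 CPM (0.483). Live iso was the high library for both. Of 11 genes of apoptotic cell uptake and cholesterol efflux 0 were higher and 5 lower (-0.47), with Apoe at 217, 47.5, 95.5, 210 and 139 CPM (0.498, 0.354 to 0.688).
Lyz2, lysozyme of monocytes and macrophages, stood at 160, 74.8, 271, 278 and 109 CPM (0.276, 0.214 to 0.353), a ratio of 0.158 after thinning. Beside these, live iso had the highest erythroid marker sum and the Gm42418 level given above, and the part of erythroid RNA in the lower genes was not tested. With Gm42418 out of the CPM denominator the medians of the stress and uptake lists were -0.52 and -0.52. Lars2 (0.232) and Gm10076 (0.308) were among the 10 lowest genes, with Tsc22d3, Cdcp1, Zfp36l2, Lmtk2 and St8sia6.

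**Figure D4:**
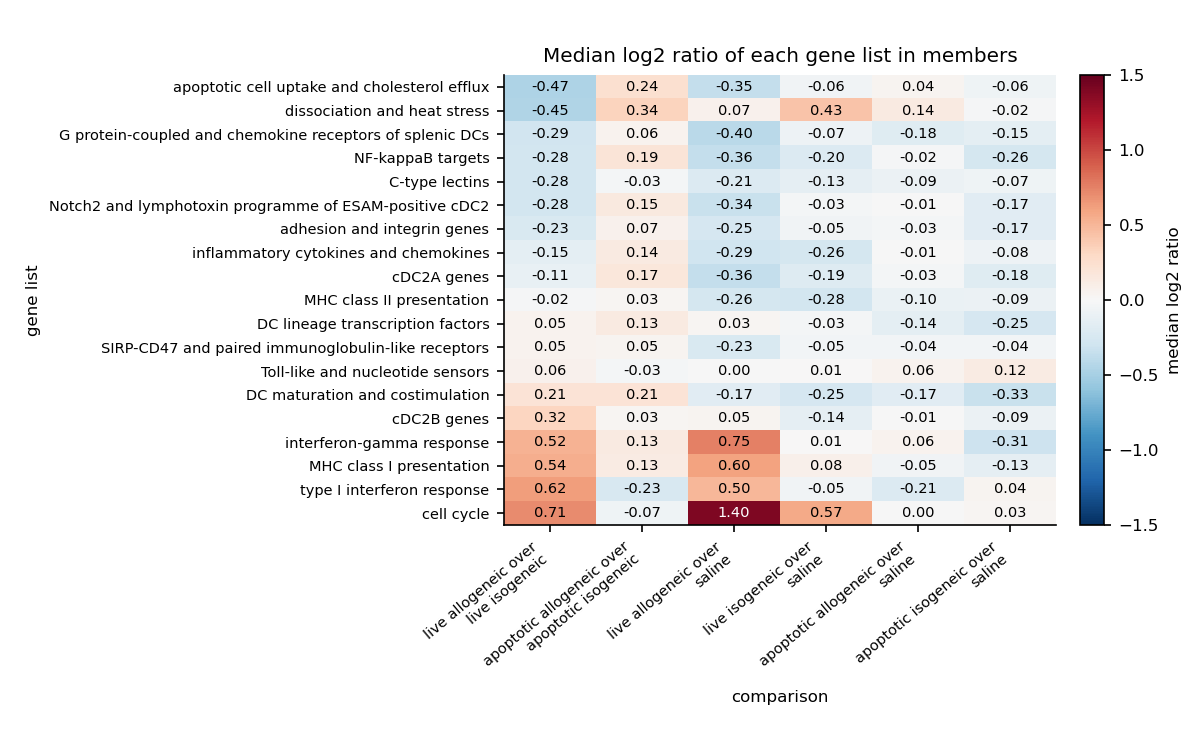
Median log2 ratio (colour and printed value, with a pseudocount of 10 CPM) of each of 19 gene lists (rows) in members, for the 6 comparisons between libraries (columns). The type I interferon list stands at 0.62 for live allo over live iso and at -0.23 for apoptotic allo over apoptotic iso.

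Apoptotic allo against apoptotic iso, the matching question for apoptotic cells, gave fewer genes past 1.5-fold. Of 6409 genes 251 (3.92%) were higher in apoptotic allo and 205 (3.2%) lower. Of 34 type I interferon genes 0 were higher and 7 lower (median log2 ratio -0.23), with Ifi27l2a at 0.648 (0.576 to 0.729), Ddx58, a sensor of viral RNA, at 0.617 (0.437 to 0.870), and Oasl2 at 0.627 (0.405 to 0.966). Of 13 interferon-gamma genes 4 were higher and 1 lower (0.13), among them Gbp5 at 27.0 against 11.4 CPM (2.38, 1.34 to 4.46) and Irf8 (1.86, 1.12 to 3.20). The type I list thus had medians of opposite sign in the live and the apoptotic pair, and the difference between the pairs was not tested.

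The heat shock genes Hspa1a and Hspa1b headed the higher genes. Hspa1b stood at 25.3 CPM in saline, 93.01 in live allo, 68.1 in live iso, 117 in apoptotic allo and 33.4 in apoptotic iso (3.499, 2.55 to 4.90), and Hspa1a at 28.4, 101, 81.0, 103 and 31.3 (3.31, 2.37 to 4.69). The 2 genes are near-identical copies, and the division of reads between them is not stated in the labels. Live allo, live iso and apoptotic allo were all high, and saline and apoptotic iso low. Of 26 genes of dissociation and heat stress 7 were higher in apoptotic allo and 0 lower (median 0.34, and 0.12 over 20 genes after thinning), with Fos at 2.03 (1.63 to 2.54), Jund at 1.55 (1.36 to 1.78), Fosb at 1.73 (1.45 to 2.06) and Atf3 at 2.35.

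Maturation genes leaned higher in apoptotic allo, with 4 of 20 higher and 0 lower (0.21): Cd83 (1.58), Fscn1 (1.77, 1.39 to 2.27), Samsn1 (1.69, 1.41 to 2.03) and Cacnb3 (1.74, 1.11 to 2.78). Apol7c, a gene known from mature dendritic cells, stood at 225, 179, 197, 209 and 91.6 CPM (2.28, 1.87 to 2.81), apoptotic iso being the low library. Of 11 tested mature dendritic cell markers, Apol7c was the 1 that stood lower in members than in cDC1-gated cells, and 10 stood higher. The mature dendritic cell marker sum was also lowest in apoptotic iso, at 660 against 975 CPM in apoptotic allo, and the share of mature-scored members was 8.31% against 12.2%, a difference in mix that moves with these genes. Without the mature-scored members Apol7c came to 1.35 and Fscn1 to 1.31, under the threshold, while Cd83 came to 1.52 and Samsn1 to 1.73. Hes1, a Notch target, stood at 47.6, 64.7, 80.5, 81.5 and 50.4 CPM (1.62, 1.21 to 2.17) and was the 1 higher gene of 18 in the Notch2 list, with 0 lower. Of 15 MHC class II and 23 MHC class I genes 0 were past the threshold.

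Genes of macrophages were higher in apoptotic allo as well. Vcam1, an adhesion protein abundant on red pulp macrophages, stood at 13.2, 8.09, 13.9, 55.5 and 4.97 CPM (11.2, 5.24 to 28.5, and 16.8 without mature-scored members), and Lyz2 was 2.54-fold higher (2.12 to 3.06). Of 7 measured red pulp macrophage markers 6 were higher and 0 lower (median 1.83), and the whole list summed to 354 against 88.1 CPM. Apoe was 1.51-fold higher and the inhibitory receptor Lilrb4a 2.23-fold (1.31 to 3.97). In cDC1-gated cells the macrophage sums were 352 CPM in apoptotic allo and 319 in apoptotic iso, and in Cd209a-gated cells 75.4 and 1798. The part of free macrophage RNA in the higher genes of the members was not tested.

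The lowest genes were led by Blvrb, biliverdin reductase, at 26.5 against 61.1 CPM (0.433), Yif1a (0.390) and Shld2 (0.399). The cyclin Ccnb2 stood at 0.520 and Birc5 at 0.619. Without the members above 3 times their library's median UMIs, of which apoptotic iso held 3 (the largest of 45954 UMIs) and apoptotic allo 0, Blvrb came to 1.11, Ccnb2 to 1.17 and Birc5 to 1.03. Wdr89 stood at 89.3 against 158 CPM (0.564, and 0.318 after thinning).

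**Figure D5:**
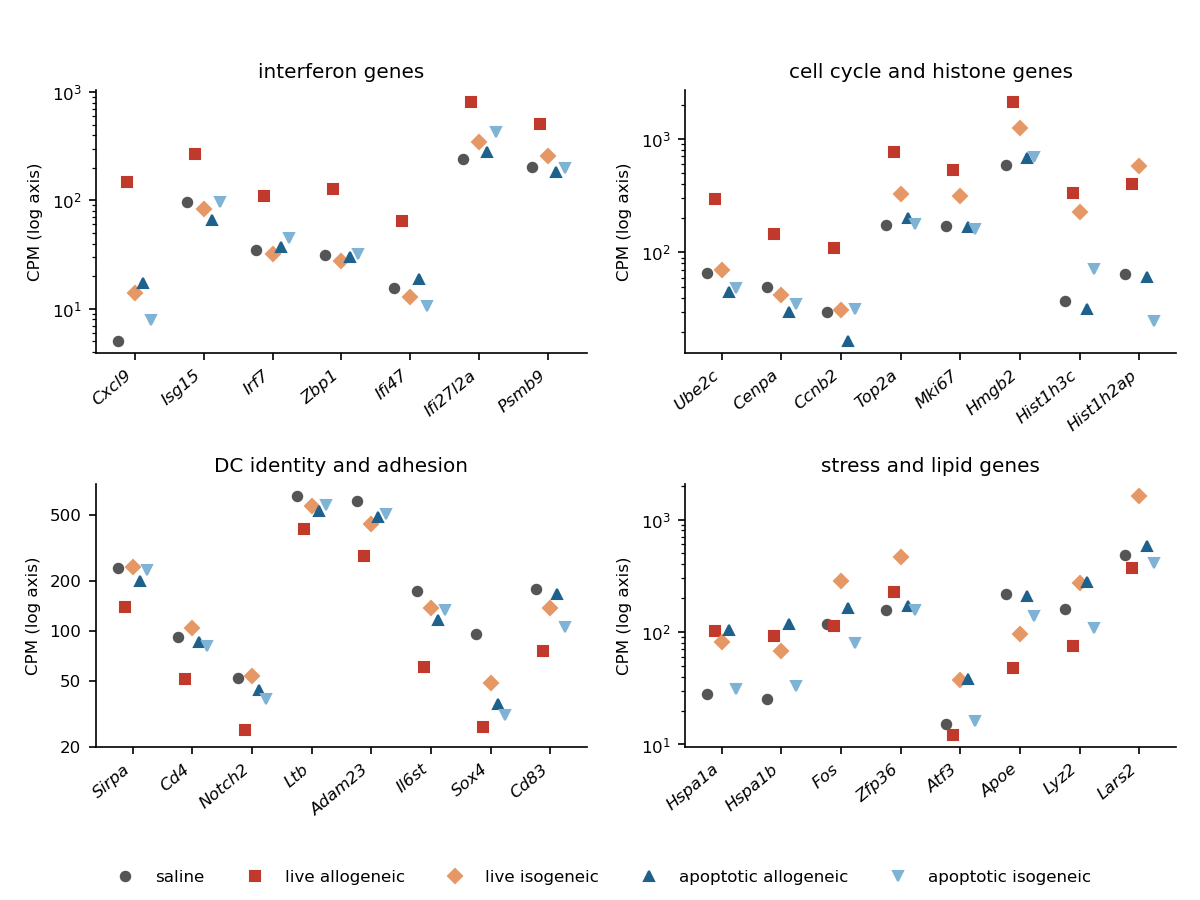
CPM of named genes in the members of each of the 5 libraries on log axes, 1 point per library, in 4 panels by gene group. Isg15 and Cxcl9 are highest in live allo at 267 and 148 CPM, and Hspa1b is highest in apoptotic allo at 117 CPM.

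Each infusion was also set beside saline. These 4 comparisons share the saline library, so their values are given side by side and no overlap between them is read. For live allo, 741 of 6234 genes (11.9%) were higher and 773 (12.4%) lower. For live iso, 669 of 7081 (9.45%) were higher and 507 (7.16%) lower, with the higher share of the calls going from 56.9% to 67.7% without Gm42418 in the denominator.
For apoptotic allo, 175 of 6927 (2.53%) were higher and 347 (5.01%) lower. For apoptotic iso, 173 of 6548 (2.64%) were higher and 384 (5.86%) lower. The higher share of the calls is sensitive to scaling in the apoptotic libraries: with TMM it went from 33.5% to 53.1% for apoptotic allo and from 31.1% to 48.5% for apoptotic iso. The median of all genes stayed within 0.1 of 0 on the log2 scale in each setting tried.

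Over saline, the type I interferon list gave 18 higher and 0 lower of 37 genes in live allo (median log2 ratio 0.50), 2 and 3 of 37 in live iso (-0.05), 0 and 6 of 37 in apoptotic allo (-0.21) and 2 and 0 of 37 in apoptotic iso (0.04). Ifi27l2a was 3.34-fold higher in live allo (2.98 to 3.74) and 1.78-fold in apoptotic iso (1.58 to 2.01). Ifit3 stood at 0.397 (0.237 to 0.645) in apoptotic allo and 0.649 (0.426 to 0.978) in live iso. The interferon-gamma list gave 10 higher and 1 lower of 17 in live allo, 2 and 1 of 16 in live iso, 1 and 0 of 14 in apoptotic allo and 0 and 2 of 12 in apoptotic iso. Its median in live allo was 0.75 and turned negative among genes with at least 100 UMIs (-0.12) and after thinning (-0.43), where fewer genes of the list could be measured. Cxcl9 was 29.1-fold higher in live allo (15.4 to 62.0), and 11.3-fold without the mature-scored members.

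The cell cycle list gave 32 higher and 1 lower of 37 genes in live allo (1.395, and 0.87 with a pseudocount of 50 CPM), 21 and 2 of 37 in live iso (0.57), 1 and 2 of 34 in apoptotic allo and 2 and 1 of 34 in apoptotic iso. Hmgb2 was 3.61-fold higher in live allo (3.36 to 3.88) and 2.12-fold in live iso (1.98 to 2.28). Replication-dependent histones stood high in the live libraries, with Hist1h3c at 37.5 CPM in saline, 334 in live allo, 227 in live iso, 31.7 in apoptotic allo and 71.0 in apoptotic iso. Hist1h2ap stood at 64.4, 403, 577, 60.7 and 24.9 CPM. These histone genes belong to a family of near-identical copies, so single members are uncertain.

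MHC class I gave 13 higher and 0 lower of 23 genes in live allo (0.60) and 4 and 0 of 23 in live iso. B2m, the shared light chain of class I, stood at 1418 CPM in saline, 2158 in live allo, 2157 in live iso, 1495 in apoptotic allo and 1298 in apoptotic iso, so both live libraries were high. MHC class II gave 0 and 2 of 15 in live allo (-0.26) and 0 and 1 in live iso (-0.28). H2-Ob, part of the regulator of class II peptide loading, was at 0.522 in live allo (0.418 to 0.647).

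Some genes known for ESAM-positive cDC2 stood lower in live allo than in saline. The Notch2 and lymphotoxin list gave 0 higher and 5 lower of 18 genes (-0.34, and -0.02 over 7 genes after thinning), beside 11.9% and 12.4% of all genes. Of the 6 given markers, 1 was higher (Ppp1r14a), 2 lower (Adam23 and Rtn1) and 3 between. Adam23, at 0.467 (0.409 to 0.532), and Ffar2, at 0.98 (0.883 to 1.10), are gate genes, so their values are a description. Ltb stood at 655, 413, 571, 534 and 575 CPM (0.630 in live allo, and 0.831, under the threshold, after thinning), Ccr6 at 0.525 (0.324 to 0.823), Notch2 at 0.484 and Cd4 at 0.562. The transcription factor Zeb2 stood at 0.499 (0.416 to 0.596), and Sox4, at 95.8, 26.3, 48.7, 36.3 and 31.2 CPM, was highest in saline and at 0.274 (0.175 to 0.415) in live allo. Sox4 was also low in apoptotic allo (0.379) and apoptotic iso (0.326). Il6st, the shared receptor chain of the interleukin-6 family, stood at 0.347 in live allo (0.259 to 0.458, and 0.0629 after thinning), and Tmod2, a cap of actin filaments, at 0.191.

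Maturation and NF-kappaB genes differed by library. The maturation list gave 3 higher and 5 lower of 22 in live allo (-0.17), 0 and 6 of 21 in live iso (-0.25), 0 and 0 of 21 in apoptotic allo and 0 and 6 of 20 in apoptotic iso (-0.33). NF-kappaB targets gave 0 and 7 of 25 in live allo, 1 and 6 of 26 in live iso and 0 and 2 of 26 in apoptotic iso. Ccl5 stood at 1058 CPM in saline, 558 in live allo, 681 in live iso, 887 in apoptotic allo and 1177 in apoptotic iso. Cd83 was at 0.422 in live allo and 0.592 in apoptotic iso, and Fscn1 at 0.581 in apoptotic iso, where without mature-scored members they came to 0.760 and 0.753. In live allo Fscn1 stood 2.06-fold higher (1.72 to 2.48), or 1.17-fold without mature-scored members. In apoptotic iso 7 of 8 measured mature dendritic cell markers were lower than in saline (-0.71), and in live allo 2 of 10 were higher and 1 lower (-0.08).

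Stress genes differed between the infused libraries, and not in members alone. In cDC1-gated cells the list summed to 6415 CPM in saline, 6861 in live allo, 7883 in live iso, 6568 in apoptotic allo and 6255 in apoptotic iso. In Cd209a-gated cells it summed to 8098, 11962 (1 cell), 10280, 8397 and 7319 in that order, so live iso was above saline there too. In members the list gave 2 higher and 2 lower of 24 over saline in live allo, 11 and 1 of 26 in live iso (0.43), 6 and 0 of 26 in apoptotic allo (0.14) and 0 and 1 of 25 in apoptotic iso. Hspa1b was 4.61-fold higher in apoptotic allo (3.38 to 6.40) and 3.67-fold in live allo (2.57 to 5.29), while Egr1, an immediate early gene, stood at 0.465 in live allo (0.395 to 0.545). In live iso Zfp36 was 2.97-fold higher, Btg2 1.95-fold (1.76 to 2.16) and Nr4a1 2.42-fold (1.90 to 3.10). Apoe, the lipid carrier apolipoprotein E, stood in live allo at 0.219 of its saline level, or 0.373 after thinning.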

How the data were processed

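Spleen cell suspensions of 5 libraries were profiled with the 10x Genomics single cell 3′ v3.1 protocol, per the labels' protocols, and Cell Ranger 4.0 and mouse build mm10 are named in the submitters' processing notes. The deposited matrices hold raw UMI counts per gene and barcode (32285 genes), and the apoptotic allo file lists only 2491 barcodes, each with at least 500 UMIs, whereas the others list 6794880. Barcodes of 1000 or more UMIs and 500 or more genes, with no more than 10% of UMIs mitochondrial, were kept as cells, between 1186 (live allo) and 6380 (apoptotic iso) per library, at a median of 2298 to 4984.5 UMIs per cell. Gene IDs were matched to the GENCODE annotation for 32158 of 32285 genes (99.61%), and promoter sequences come from RefSeq on GRCm38.p6.

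The members, the gene lists and the markers were chosen with earlier results of these data known. Members were gated on the counts of single genes, and no clustering was used. Doublets were called with Scrublet in scanpy 1.11.5 on each library and not removed, since 0 members were marked. UMIs were summed over the gated cells of each library. Populations were compared with edgeR 4.0.16 (R 4.3.3, TMM, filterByExpr, quasi-likelihood F test, library as a block, Benjamini-Hochberg adjusted p under 0.05), with SE taken as the fold change over the root of F, and with DESeq2 1.42.0 as an alternative. Folds against a population with no UMI are given against 3 counts over the group. Conditions were compared by CPM, with a fold and an exact conditional Poisson interval at 95%, log2 ratios with a pseudocount of 10 CPM and a threshold of 1.5-fold among genes with at least 50 UMIs in the 2 libraries, without a test. Shares carry exact Clopper-Pearson intervals, and shares per cell were taken after thinning each cell to 1000 UMIs (no member was shallower). Both scripts were tested on simulated data. For allo over iso, 90.53% of 2-fold changes were recovered in the live pair and 95.74% in the apoptotic pair. The 1.5-fold threshold was also passed by 4.67% and 3.961% of unchanged genes in that order. Against Cd209a-gated cells, 39.6% of 2-fold and 91.3% of 4-fold changes were recovered, with 2 of 124 calls false. For cDC1-gated cells the shares were 82.5% and 98.97%, with 9 of 185 calls false.

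Named genes were the 12 highest and 12 lowest population differences among called genes with the same sign in 5 of 5 libraries and an average log2 CPM of at least 5. For conditions they were the 10 highest and 10 lowest of each allo against iso pair and the 4 highest and 4 lowest against saline, among genes found in at least 10% of members of a library. The given markers and up to 4 of the most abundant genes past 1.5-fold of each list were added, and a further set of levels is quoted for genes on the lists, chosen after their values were seen. Genes of antigen receptors, haemoglobins, mitochondria, ribosomal proteins and the sex chromosomes' own Xist and Y genes were left out, as were genes whose CPM in members was under 0.1 of that in a reference cell type. Alternatives covered the normalization, the UMI minimum, the pseudocount, thinning, left-out libraries, doublets, the comparison gates and large or mature-scored members. Results on a few genes are not reported here.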

Additional observations from a re-analysis of the deposited data

Results flagged for a closer look

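In 5 of the named population genes 1 library stood apart from the other 4 by Dixon's criterion for 5 values (a gap to the nearest value over the whole range above 0.71), which chance meets in about 1 in 20 groups. The named genes are the 12 highest and 12 lowest of each population comparison, so chance alone would give some such cases. Crip1, members minus Cd209a-gated cells on the log2 scale, stood at -0.28 in live allo against -4.43 to -3.56 in the others, and Fxyd5 at -0.76 against -2.95 to -2.73. The Cd209a side of live allo is 1 cell in both. Rab7b, members minus cDC1-gated cells, stood at -5.74 in apoptotic allo against -7.37 to -6.91. Dscam stood at 4.56 in live allo against 5.34 to 5.51, and Tgm2 at 4.82 in apoptotic iso against 6.44 to 6.76.

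Other results had opposite signs in the live pair (allo over iso) and the apoptotic pair, a difference that was not tested, since each side is 1 library. The median log2 ratio of the type I interferon list was 0.62 in the live and -0.23 in the apoptotic pair, that of apoptotic cell uptake and cholesterol efflux -0.47 and 0.24, and that of dissociation and heat stress -0.45 and 0.34. As folds, Ccnb2 stood at 3.54 and 0.52, Ifi27l2a at 2.34 and 0.648 and Ppp1r14a at 1.71 and 0.782, higher in allo for live cells only. Fos stood at 0.397 and 2.03, Cd83 at 0.551 and 1.58, Lyz2 at 0.276 and 2.54 and Apoe at 0.498 and 1.51, lower in allo for live cells. The Ccnb2 fold of the apoptotic pair was 1.17 without 3 apoptotic iso members of high UMI count, and the stress median of that pair was 0.12 after thinning. Lyz2 and Apoe are also expressed by macrophages, whose marker sum was highest in apoptotic allo.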

How the results depend on the processing

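No paired analysis was possible because the condition groups hold 1 library each, while the population comparisons carry the library as a block throughout. Members' share of the 3 gated populations (saline, live allo, live iso, apoptotic allo, apoptotic iso) came to 68.9, 63.8, 64.4, 65.6 and 71.4% when gated after thinning to 2000 UMIs, and to 58.1, 54.3, 51.2, 56.4 and 62.99% against comparison cells of any gate count, an alternative chosen after seeing the data. Genes higher than in Cd209a-gated cells numbered 432 with DESeq2 and 416 against any gate count, and 391 to 701 with 1 library left out, lower genes 280 to 607. Against cDC1-gated cells 1221 were higher with DESeq2, and leaving out 1 library gave 1557 to 1754 higher and 1518 to 1821 lower. Of the 1147 calls against Cd209a-gated cells, 669 were called again against any gate count, with 10 of opposite sign.

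The type I interferon median for live allo over live iso was 0.37 with a pseudocount of 50 CPM and 1.02 after thinning, and over saline 0.35 and 0.80. For apoptotic iso over saline it was -0.23 after thinning. The interferon-gamma median for live allo over saline was -0.12 with at least 100 UMIs and -0.43 after thinning, where fewer genes are measured. The percent of genes past 1.5-fold followed the UMI minimum of 20 or 100. It was 7.31 or 2.00 higher and 6.89 or 1.41 lower for apoptotic allo over apoptotic iso, 4.90 or 1.51 higher and 8.39 or 2.40 lower for apoptotic allo over saline (3.797 higher with TMM, 4.32 thinned), and 5.83 or 1.25 higher and 9.71 or 3.605 lower for apoptotic iso over saline. Folds that turned were Blvrb (1.11), Birc5 (1.03) and Ccnb2 (1.17) for apoptotic allo over apoptotic iso without members above 3 times the median UMIs, Irf8 (0.89) for live allo over live iso without mature-scored members, and Lgals3 (1.4003, from 0.662) and Clec4a2 (1.05, from 0.607) for live iso over saline after thinning. The cause was not tested. The share of members with at least 2 type I interferon UMIs was 77.0, 92.0, 76.1, 74.8 and 79.8%, and with at least 5 it was 31.9, 58.0, 30.3, 25.5 and 34.4%, live allo being highest at each threshold. Without mature-scored members the saline share was 64.6%. Genes left under 50 UMIs by an alternative gave no value there, and the live allo sum of 989124 UMIs limits low genes most.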
